A study of Mus musculus with 6 samples.

Results

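The following describes 10 chemokine genes in MC38 tumour cells, Cxcl1, Cxcl5, Cxcl10, Cxcl12, Cxcl16, Ccl2, Ccl5, Ccl7, Ccl20 and Cx3cl1. They were the rows of the deposited table whose gene symbol equals one of these names, 10 of 52636 genes. MC38 is a mouse colon tumour cell line, and all 6 RNA sequencing libraries came from untreated cells of a derivative named M1E5 in the genotype labels. The labels put 3 libraries in the group Zfx F5, an edited line of it, and 3 in the group WT. The series calls its edited lines Zfx KO clones, made with transfected CRISPR ribonucleoprotein against Zfx, an X-linked gene for a zinc finger transcription factor. F5 is the only edited line among these samples, so the edit and any other difference of that line from WT cannot be told apart. The design text gives in vitro culture as the RNA source, whereas the extract protocol names sorted tumour cells.

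Chemokines are small secreted proteins that guide migrating cells, mostly leukocytes, along gradients by binding G protein-coupled receptors on them. They are classed by the spacing of cysteines near the N terminus as CC, CXC and CX3C. Tumour cells and the cells around them release chemokines that recruit neutrophils, monocytes and T cells. Many chemokine genes, such as Cxcl1 and Ccl2, are classical targets of NF-kB, the inflammatory transcription factor family, and Cxcl10 is also a classical target of interferon.

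The libraries held 19759239 to 22748778 reads in the group labelled Zfx F5 and 18876673 to 24241864 in WT. Zfx itself measured 125, 129 and 122 CPM (reads of the gene per 1000000 reads counted) in the libraries labelled Zfx F5, against 64.4, 69.7 and 68.9 CPM in WT. The groups did not overlap and Zfx mRNA was 0.89 higher on the log2 scale in the edited line (limma adjusted p = 3.47e-18). The series names the line a knockout, and whether Zfx protein was lost cannot be read from its mRNA level. The mRNA level thus does not check the labels, and every direction given here rests on them. Whether the 3 libraries of a group are separate cultures is not labelled, and p-values therefore cover library spread that may be only technical. Of 12 epithelial markers 5 were at 0 reads in all libraries and 1 was kept by the filter on low values. That marker, Cdh1, had 2.10 ± 0.114 CPM in Zfx F5 and 0.848 ± 0.283 CPM in WT (SD, n = 3 each), and was kept only through Zfx F5. By contrast 8 of 8 mesenchymal markers were kept, 4 higher and 4 lower, where 37.0% of all kept genes rose and 35.9% fell. The mesenchymal markers ran from Fn1, 4.08-fold higher in Zfx F5, to Snai2, with 3.05 ± 0.434 CPM in Zfx F5 and 30.7 ± 0.423 CPM in WT (SD, n = 3 each). The epithelial keratin gene Krt8 had 39, 34 and 41 reads in the libraries labelled Zfx F5 and 0 in each WT library. Lgals4, an epithelial marker also below the filter, went the other way, with 8, 8 and 12 reads in Zfx F5 and 10, 11 and 21 in WT.

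Upstream sequence from RefSeq (build GRCm38.p6, the assembly of mm10) was at hand for 5 of the 10 genes, Cxcl1, Cxcl10, Cxcl12, Ccl20 and Cx3cl1. The 250 bases before the transcript start are printed for Cxcl1 and Cxcl10, the members of these 5 that had measurable mRNA and rose. They lie at chr5:90890995-90891244 on the plus strand and at chr5:92348890-92349139 on the minus strand. Capitals mark matches, on either strand, to 4 short motifs described after the sequences.
Cxcl1: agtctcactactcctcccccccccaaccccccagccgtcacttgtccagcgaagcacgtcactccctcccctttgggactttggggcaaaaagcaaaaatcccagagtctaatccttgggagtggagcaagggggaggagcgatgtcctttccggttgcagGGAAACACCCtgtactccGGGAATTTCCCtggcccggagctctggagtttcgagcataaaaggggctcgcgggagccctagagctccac
Cxcl10: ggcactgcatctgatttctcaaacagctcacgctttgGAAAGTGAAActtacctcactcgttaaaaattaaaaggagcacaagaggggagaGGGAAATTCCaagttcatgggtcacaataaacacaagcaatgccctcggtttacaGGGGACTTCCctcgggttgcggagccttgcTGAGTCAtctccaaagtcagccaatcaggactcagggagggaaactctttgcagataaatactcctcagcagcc
The letters GGG and TTCC with any 3 bases between them, which cover a subset of NF-kB sites, matched 3 times in Cxcl1. A pair of these matches overlap in the run GGGAATTTCCC, one on each strand, between 71 and 61 bases before the start. The same letters matched at 2 places in Cxcl10, as GGGAAATTCC between 159 and 150 bases and as GGGGACTTCC between 104 and 95 bases before the start. Cxcl10 also held GAAAGTGAAA, a match to the interferon-response core (GAAA, any 2 bases, GAAA), between 213 and 204 bases before the start, and the AP-1 letters TGAGTCA (searched as TGANTCA) between 74 and 68. None of the 5 windows held AGGCCT, the core of the sequence that Zfx is known to bind. Among all 32851 windows of this length, 4.65% held the NF-kB letters, 2.98% the interferon-response core, 6.75% the AP-1 letters and 8.70% AGGCCT. Ccl20, which was listed at 0 reads, held 1 match to the NF-kB letters as well, and Cxcl12 and Cx3cl1 held no match to any of the 4.

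Only 5 of the 10 chemokine genes had mRNA that could be compared. Ccl2, Cxcl10, Ccl5, Cxcl1 and Ccl7 passed the filter on low values, a log2 level averaging 0 or more in the 6 libraries, and their WT means alone, 0.94 to 5.49 on the log2 scale, would have passed it too. All 5 rose in the libraries labelled Zfx F5 and 0 fell, where 37.0% of the 12279 kept genes rose and 35.9% fell. In 4 of the 5 the rise was at least 2-fold, which 4.11% of kept genes reached, while 5.99% were at least 2-fold lower. The groups did not overlap for any of the 5, with the libraries labelled Zfx F5 higher each time, as for 37.8% of kept genes. Since the genes compared are few and 72.9% of kept genes had an adjusted p under 0.05 in either direction, passing the test does not set these genes apart. The median log2 difference was 1.35 over the 5 genes and 0.02 over all kept genes. Members were chosen with earlier results of these data known, so these contrasts with all kept genes are description only. In bulk RNA, more cells making a transcript and more of it per cell cannot be told apart.

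**Figure D1:**
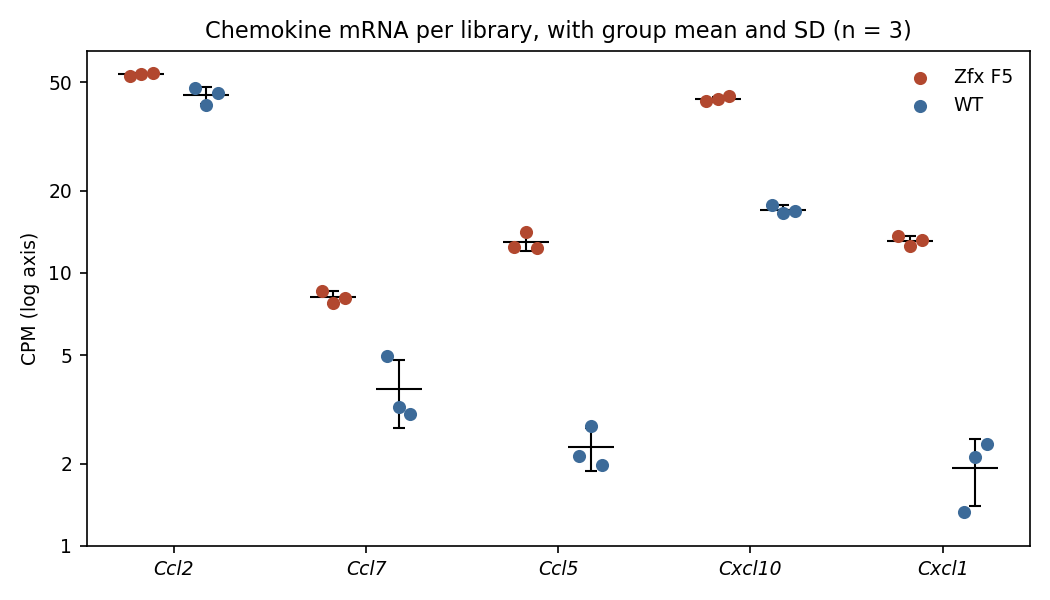
Level of each measurable chemokine mRNA in CPM, on a log axis, in every library. Points are libraries, with Zfx F5 in red on the left and WT in blue on the right, and bars are the mean and SD of 3 libraries. No gene's groups overlap, and on this log axis Ccl2 has the narrowest gap, with 52.9 CPM in the lowest Zfx F5 library and 47.5 CPM in the highest WT library.

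Cxcl1 and Cxcl5 encode CXC chemokines that attract neutrophils through the receptor Cxcr2. Cxcl1 (ENSMUSG00000029380, plus strand, mm10 chromosome 5 from 90891241 to 90893115) had 290, 248 and 300 reads in the libraries labelled Zfx F5, against 31, 40 and 57 reads in WT. As levels these were 13.7, 12.6 and 13.2 CPM in Zfx F5 and 1.33, 2.12 and 2.35 CPM in WT. The WT libraries were more scattered, with replicate 1 the lowest, and none came near the Zfx F5 libraries. In log2 terms the means were 3.72 ± 0.06 in Zfx F5 and 0.94 ± 0.43 in WT (SD, n = 3 each), 6.88-fold higher in Zfx F5 (log2 difference 2.78, SE 0.16, limma adjusted p = 1.90e-12). Only 1.36% of kept genes had a larger absolute difference. Cxcl5 (plus strand, chromosome 5 from 90759360 to 90761624), which lies in the same gene cluster with 129616 bases between it and Cxcl1, was listed at 0 reads in all 6 libraries. The cluster's other chemokine genes, Cxcl2, Cxcl3, Cxcl15, Pf4 and Ppbp, had at most 2 reads in any library, so Cxcl1 was the one member of this cluster with a measurable level.

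The 3 kept genes whose centred log2 values over the 6 libraries lay nearest to those of Cxcl1 were Dock8 (Euclidean distance 0.309), Kif26b (0.336) and Mecom (0.487). Their log2 differences were 2.75, 2.81 and 3.13. With 6 libraries in 2 groups, genes with a difference of similar size lie near each other by this measure.

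Cxcl10 encodes a chemokine for T and natural killer cells that carry Cxcr3. The gene (ENSMUSG00000034855, minus strand, chromosome 5 from 92346638 to 92348889) had 902, 856 and 1010 reads in the libraries labelled Zfx F5, against 415, 312 and 409 reads in WT. The levels were 42.6, 43.3 and 44.4 CPM in Zfx F5 and 17.8, 16.5 and 16.9 CPM in WT. Both groups were tight and far apart. The log2 means were 5.44 ± 0.03 in Zfx F5 and 4.09 ± 0.05 in WT (SD, n = 3 each), 2.54-fold higher in Zfx F5 (log2 difference 1.35, SE 0.061, limma adjusted p = 1.17e-18). Of its annotated exon bases 5.91% are shared with Art3 on the other strand, a gene at 0 reads in every library. Cxcl9 and Cxcl11, the neighbouring genes for the other Cxcr3 ligands, summed to 5 and 3 reads over the Zfx F5 libraries and to 0 and 4 reads over WT. At that depth a rise like that of Cxcl10 was not detectable in them under the filter.

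Ccl2 and Ccl7 encode CC chemokines that attract monocytes through Ccr2, and lie next to each other with 8258 bases between them. Ccl2 (ENSMUSG00000035385, plus strand, chromosome 11 from 82035571 to 82037453) had 1122, 1063 and 1232 reads in the libraries labelled Zfx F5, against 1110, 782 and 1111 reads in WT. Its levels were 52.9, 53.8 and 54.2 CPM in Zfx F5 and 47.5, 41.4 and 45.8 CPM in WT. The groups did not overlap, but the gap between them was smaller than the spread in WT. The level was 1.20-fold higher in Zfx F5 (log2 difference 0.26, SE 0.052, limma adjusted p = 5.97e-05). Absolute differences larger than this were found for 57.7% of kept genes, so Ccl2 stood in the middle of the table.

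Ccl7 (ENSMUSG00000035373, plus strand, chromosome 11 from 82045712 to 82047525) had 182, 153 and 184 reads in the libraries labelled Zfx F5, against 116, 61 and 74 reads in WT. Its levels were 8.59, 7.74 and 8.09 CPM in Zfx F5 and 4.96, 3.23 and 3.05 CPM in WT. WT replicate 1 was the highest WT library and still below every library labelled Zfx F5. The level was 2.21-fold higher in Zfx F5 (log2 difference 1.14, SE 0.15, limma adjusted p = 2.38e-07). Per length, Ccl7 stood at 0.165, 0.146 and 0.152 of the level of Ccl2 within the Zfx F5 libraries, against 0.106, 0.0792 and 0.0676 within the WT libraries. These ratios did not overlap, so the neighbours did not rise in proportion. The genes farther along this cluster, Ccl11, Ccl12, Ccl8 and Ccl1, were listed at 0 in every library.

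Ccl5, also called RANTES, encodes a CC chemokine that attracts T cells and monocytes. The gene (ENSMUSG00000035042, minus strand, chromosome 11 from 83525778 to 83530518) had 265, 280 and 281 reads in the libraries labelled Zfx F5, against 50, 52 and 48 reads in WT. Its levels were 12.5, 14.2 and 12.4 CPM in Zfx F5 and 2.14, 2.75 and 1.98 CPM in WT. The groups were far apart and did not overlap. The log2 means were 3.70 ± 0.11 in Zfx F5 and 1.20 ± 0.25 in WT (SD, n = 3 each), 5.65-fold higher in Zfx F5 (log2 difference 2.50, SE 0.13, limma adjusted p = 5.42e-17). Only 1.65% of kept genes had a larger absolute difference. Of the chemokine genes beside it, Ccl3, Ccl4 and Ccl6 were listed at 0 and Ccl9 had at most 4 reads in a library.

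The fold changes rest on few reads in WT for some genes, and the counting intervals show it. The ratio of pooled CPM, Zfx F5 over WT, was 6.83 for Cxcl1 (exact Clopper-Pearson 95% interval 5.67 to 8.30) and 5.75 for Ccl5 (4.82 to 6.89), so the intervals of these 2 genes overlap. It was 2.54 for Cxcl10 (2.37 to 2.73), 2.16 for Ccl7 (1.85 to 2.52) and 1.19 for Ccl2 (1.13 to 1.25). The intervals of Cxcl10 and Ccl7 overlap too, and that of Ccl2 lies below all others. These intervals cover counting error only. A single gene in 3 against 3 libraries cannot go below a 2-sided exact permutation p of 0.1, which each of the 5 genes reached. Adding 5 CPM before taking logs lowered the log2 differences to 1.39 for Cxcl1, 1.30 for Ccl5 and 0.59 for Ccl7, with the same directions and calls.

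**Figure D2:**
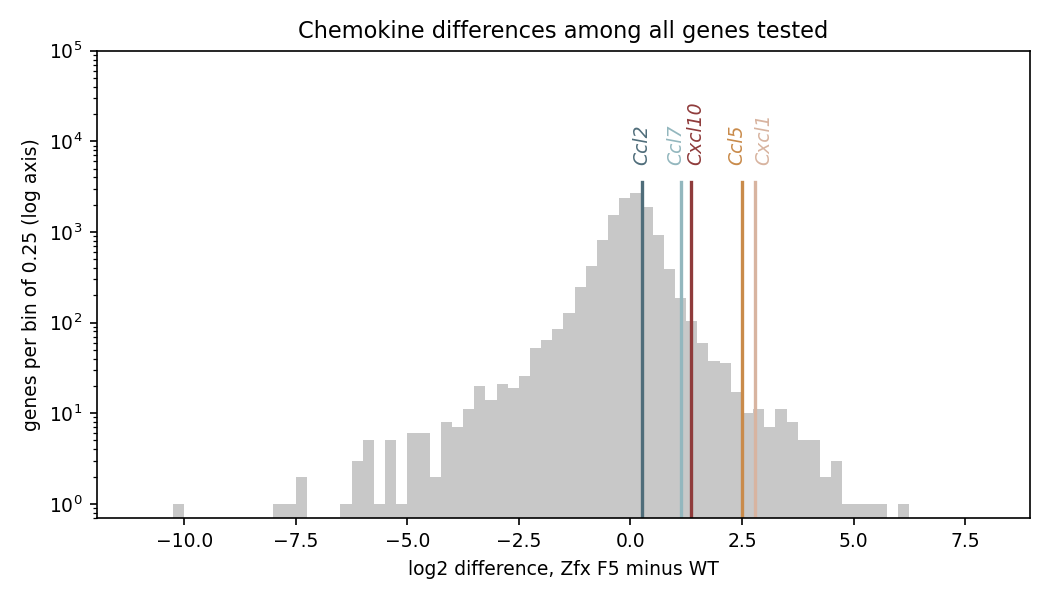
Histogram of the log2 differences, Zfx F5 minus WT, of all 12279 kept genes in bins of 0.25 with a log count axis. Coloured lines mark the 5 chemokine genes. Ccl2 at 0.26 lies in the bulk of the table, while Ccl5 at 2.50 and Cxcl1 at 2.78 lie in its upper tail.

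The make-up of the chemokine mRNA differed as well. Levels per length, in TPM (reads per base of gene length, scaled to 1000000 per library), were used to compare genes with one another. The 10 genes summed to 393, 403 and 399 TPM in the libraries labelled Zfx F5, against 231, 210 and 223 TPM in WT. Ccl2 was the most abundant in both groups, with 45.9% to 46.6% of the sum in Zfx F5 and 69.5% to 72.7% in WT. Cxcl10 made up 19.8% to 20.4% in Zfx F5 and 14.3% to 14.8% in WT, Ccl5 16.2% to 18.5% and 4.80% to 7.07%, and Cxcl1 9.14% to 10.1% and 1.70% to 3.18%. The share of Ccl7 overlapped between the groups, 6.71% to 7.56% in Zfx F5 and 4.92% to 7.58% in WT. These shares were described without a test.

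In order of level per length, the libraries labelled Zfx F5 ran Ccl2 (184 ± 2.81 TPM), Cxcl10 (79.6 ± 1.93), Ccl5 (68.1 ± 5.44), Cxcl1 (38.4 ± 1.52) and Ccl7 (28.3 ± 1.37; SD, n = 3 each). No neighbours in this order overlapped between their libraries. Both the order and the shares rest on the deposited lengths, which were 953 bases for Cxcl1, 532 for Ccl5 and 801 for Ccl7. The annotated exon bases of these genes were 1875, 960 and 801, and levels per exon base were not computed. In WT the order was Ccl2 (158 ± 10.1 TPM), Cxcl10 (32.1 ± 0.885), Ccl7 (13.4 ± 3.60), Ccl5 (12.3 ± 2.23) and Cxcl1 (5.81 ± 1.67; SD, n = 3 each). There the ranges of Ccl7, 11.0 to 17.5 TPM, and Ccl5, 10.7 to 14.9 TPM, overlapped, so their order was not separated. Among all kept genes, Cxcl1 stood at the 55.2 percentile of TPM in Zfx F5 and at the 14.5 percentile in WT, and Ccl2 at the 91.2 percentile in Zfx F5 and the 89.0 percentile in WT.

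**Figure D3:**
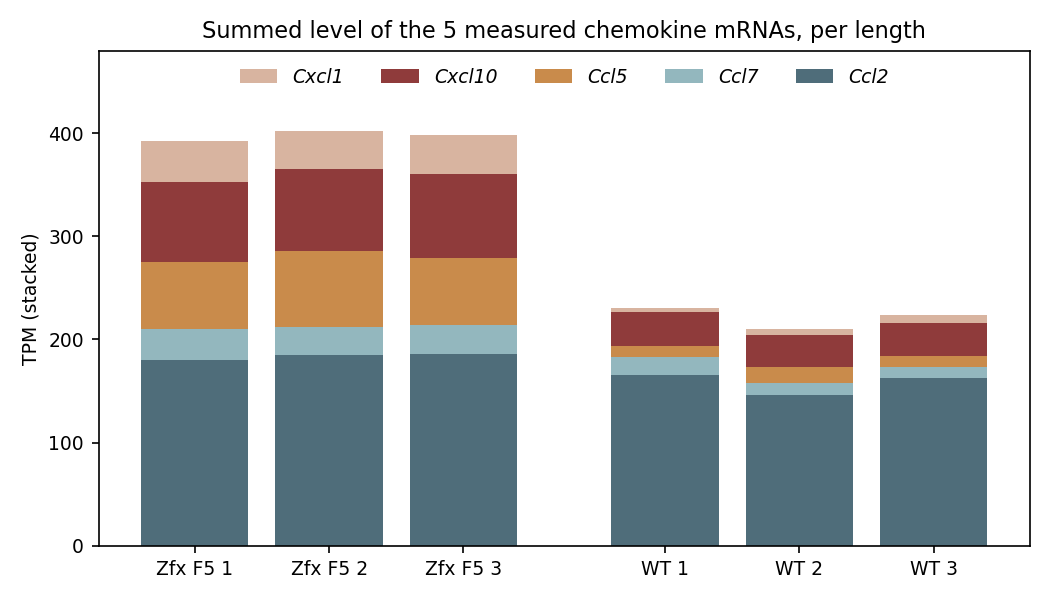
Stacked levels per length, in TPM, of the 5 measurable chemokine mRNAs in each library, with Zfx F5 libraries left of WT libraries. The stacks reach 393 to 403 TPM in Zfx F5 and 210 to 231 TPM in WT, with Ccl2 at the base (means of 184 TPM in Zfx F5 and 158 TPM in WT) and taller segments of the other genes in Zfx F5.

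The other 5 members were at or near 0 in both groups, so no level could be compared. Cxcl5, Ccl20, the Ccr6 ligand that attracts dendritic cells and Th17 cells, and Cxcl16, a transmembrane chemokine bound by Cxcr6, were listed at 0 reads in all 6 libraries. At these depths a count of 0 still allows levels of up to 0.124 to 0.159 CPM, the value of 3 reads in the deepest and the shallowest library. Cxcl12, the Cxcr4 ligand made by many stromal cells, had 0 reads in each library labelled Zfx F5 and 2, 0 and 1 reads in WT. Cx3cl1, the CX3C chemokine anchored to the membrane by a mucin stalk, had 2, 1 and 0 reads in Zfx F5 and 0, 0 and 1 reads in WT. Of its neighbouring chemokine genes, Ccl17 was listed at 0 and Ccl22 had 2 reads over Zfx F5 and 1 over WT. No fold change is given for these genes. A listed 0 is a limit of the counting as well: Gapdh, which every cell uses, was listed at 0.0856 to 0.472 CPM. Of the exon bases of Cxcl16, 18.3% are shared with Zmynd15 on the other strand, which had 6, 9 and 6 reads in Zfx F5 and 1, 2 and 0 reads in WT.

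The rest of the chemokine family was mostly at or near 0. Of 28 other chemokine symbols, with 32 rows, 22 rows were at 0 in every library and 2 rows were kept. Of these 2, 0 passed the adjusted threshold in limma and 0 had an unadjusted p under 0.05. Over all kept genes 72.9% passed, and 2 rows are too few to compare with that share. Ccl25, a Ccr9 ligand of gut and thymus, had 6.67 ± 0.148 CPM in Zfx F5 and 7.69 ± 0.622 CPM in WT (SD, n = 3 each; log2 difference -0.20, SE 0.11, limma adjusted p = 0.0935). With TMM scaling it passed as lower. Ccl28, a chemokine of mucosal epithelia, had 1.92 ± 0.250 CPM in Zfx F5 and 1.88 ± 0.0533 CPM in WT (SD, n = 3 each; limma adjusted p = 0.917).

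Of 18 receptor genes for chemokines, 0 were kept and 7 were at 0 in every library. The receptor genes Cxcr2, Cxcr3 and Ccr2, named after their values were seen, had 0 reads in every library. Among 6 atypical receptors and related proteins 1 was kept. Ackr3, which takes up Cxcl12 and Cxcl11 without classical G protein signalling, had 34.0 ± 1.33 CPM in Zfx F5 and 6.40 ± 0.832 CPM in WT (SD, n = 3 each). Its level was 5.31-fold higher in Zfx F5 (log2 difference 2.41, SE 0.086, limma adjusted p = 3.55e-21). Its ligand genes were at the few reads given above.

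Genes that act on the chemokine genes moved in both directions, as did the kept genes as a whole. Of 11 kept interferon signalling factors 6 rose, 4 fell and 1 did not pass, with a median log2 difference of 0.32. The transcription factor genes Stat2 (3.22-fold) and Irf9 (2.67-fold) rose, with limma adjusted p-values of at most 4.38e-15. Irf7, which is among the 6, had 5.41 ± 0.684 CPM in Zfx F5 and 0.450 ± 0.266 CPM in WT (SD, n = 3 each), and passed the filter only through Zfx F5, so its call carries no weight here. The count of 4 falls is not firm, since it was 1 without Zfx F5 replicate 2, and 2 without Zfx F5 replicate 3, without WT replicate 1 or without WT replicate 2. Among NF-kB genes all 15 were kept, 6 higher, 6 lower and 3 short of the threshold, with a median log2 difference of 0.04. The feedback inhibitor genes Tnfaip3 (1.95-fold) and Tnip1 (1.84-fold) and the subunit gene Rel (1.61-fold) rose, and the inhibitor gene Nfkbib fell 1.46-fold. The other subunit genes, named after their values were seen, were all lower: Rela and Nfkb1 each fell 1.41-fold, Relb 1.13-fold and Nfkb2 1.12-fold. For comparison, 37.0% of all kept genes rose and 35.9% fell.

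**Figure D4:**
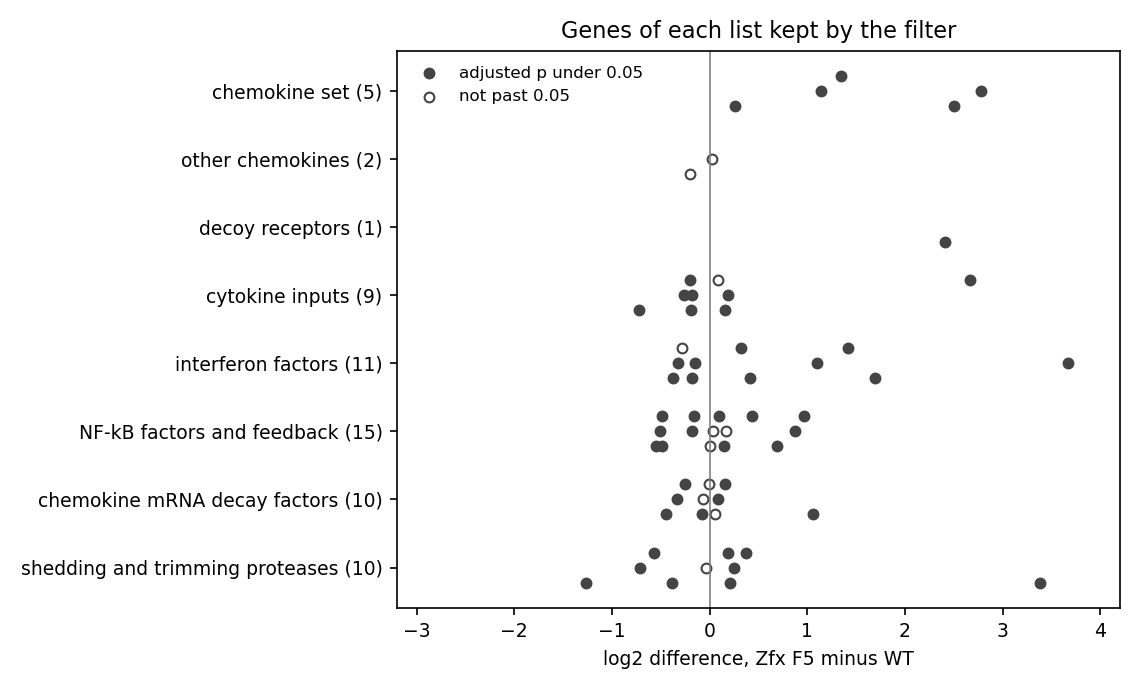
Log2 differences, Zfx F5 minus WT, of the kept genes of each list, with the number kept in brackets. Filled points passed an adjusted p of 0.05 and open points did not. The 5 chemokines lie right of 0, whereas the cytokine input, interferon, NF-kB, mRNA decay and protease lists lie on both sides.

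Among genes for cytokines that induce chemokines and for their receptors, the 7 genes not kept were all ligand genes. Of 16 cytokine and cytokine receptor genes 9 were kept, of which 3 rose, 5 fell and 1 did not pass, with a median log2 difference of -0.18. In either direction 8 of 9 passed, where 72.9% of all kept genes did. The interleukin 1 receptor gene Il1r1 had 2.72 ± 0.149 CPM in Zfx F5, against 0.416 ± 0.149 CPM in WT (SD, n = 3 each). Il1r1 is among the 3 and, like Irf7, passed the filter only through Zfx F5. The interferon receptor gene Ifnar1 fell 1.65-fold. The receptor genes Il17rc and Tnfrsf1a fell 1.20-fold and 1.15-fold. The ligand genes Tnf, Il1a and Ifnb1, named after their values were seen, summed to 4, 4 and 3 reads over the Zfx F5 libraries and to 0 reads each over WT, and Il1b, Il6, Il17a and Ifng had 0 reads in every library.

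Regulators of chemokine mRNA and protein moved both ways, as did the kept genes as a whole, of which 37.0% rose and 35.9% fell. The counts below therefore do not set these lists apart. Of 10 genes for proteins that bind or degrade such mRNAs 3 rose, 4 fell and 3 did not pass, with a median log2 difference of -0.04. The count of rises was 1 with TMM scaling, and that of falls was 2 without WT replicate 3. Zc3h12a, which encodes the RNase Regnase-1, rose 2.09-fold, and the RNA-binding protein gene Elavl1 fell 1.36-fold, followed by Rc3h2 (1.26-fold) and Zfp36l2 (1.19-fold). Of 10 kept genes for proteases that shed or trim chemokines and their inhibitors 5 rose, 4 fell and 1 did not pass, with a median log2 difference of 0.08. The inhibitor gene Timp3 rose 10.4-fold, and the gelatinase gene Mmp9, the carboxypeptidase gene Cpd and the membrane protease gene Mmp14 fell 2.41-fold, 1.64-fold and 1.48-fold. Dpp4, the enzyme that trims Cxcl10 and Ccl5, named after its values were seen, was at 0 reads in every library.

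Leukocytes and stromal cells also make these chemokines, so their markers are given beside the result. Of 12 myeloid markers, with 13 rows, 3 were kept, and the list summed to 25.6 to 27.9 CPM in Zfx F5 and 11.0 to 13.7 CPM in WT. The lysozyme gene Lyz2, kept only through Zfx F5, alone passed the test, with 976 reads over Zfx F5 and 29 over WT. The other 2 kept markers, Cd14 and Cd68, did not pass. Cd14 had 8.39 ± 0.600 CPM in Zfx F5 and 9.36 ± 1.32 CPM in WT (SD, n = 3 each). Cd68 had 3.18 ± 0.360 CPM in Zfx F5 and 2.59 ± 0.418 CPM in WT (SD, n = 3 each). The defining leukocyte gene Ptprc had 1 read over each group, the macrophage gene Adgre1 had 0, and Csf1r had 3 reads over Zfx F5 and 5 over WT. None of 12 lymphoid markers was kept, and the list summed to 0.0506 to 0.425 CPM in Zfx F5 and 0.0428 to 0.124 CPM in WT. The fibroblast list had 5 of 11 genes kept (3424 to 3552 CPM in Zfx F5 and 1252 to 1285 CPM in WT), 3 higher and 2 lower. Most of this sum was the collagen gene Col3a1 (3335 CPM in Zfx F5 and 874 CPM in WT), and Pi16 passed the filter only through Zfx F5. Pdgfrb rose 1.67-fold, and Dcn and Pdgfra fell 3.53-fold and 3.14-fold. Below the filter, Col1a2 and Col1a1 had 249 and 60 reads over Zfx F5 and 6 and 12 over WT. Lum and Acta2 had 1 and 7 reads over Zfx F5 and 8 and 9 over WT. The endothelial list had 2 of 10 kept, both higher, and summed to 33.9 to 39.1 CPM in Zfx F5 and 12.9 to 13.9 CPM in WT. These 2 were Pecam1 (2.96-fold) and Egfl7 (2.23-fold), while the endothelial cadherin gene Cdh5 had 31 reads over Zfx F5 and 10 over WT. Kdr, Tek, Emcn and Cldn5 had 0 reads in every library. Beside these marker counts, 37.0% of all kept genes rose and 35.9% fell. The part of these fibroblast and endothelial marker differences in the chemokine result was not tested.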

How the data were processed

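RNA sequencing of 3 Zfx F5 and 3 WT libraries was analysed from 1 deposited table of log2 values for 52636 genes, with 0 sample columns left unused. Builds named are mm10 and GRCh38, per the submitters' processing notes; the sources used here name no aligner or counting tool. Every column bottoms out at -4.82, and its unlogged values less that minimum add up to 1000000, so the deposited log2 values are log2(CPM + 0.0353). Whole reads were recovered from the CPM step of each library, and of the values below 300 reads 100% were whole numbers (tolerance 0.05 read). TPM was computed from these reads and the deposited gene lengths (the size column, in bases).

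Per the labels' protocols, libraries were made with Nextera XT, which does not mark strand, so an overlapping gene on the other strand can add reads to a count.

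The deposited log2 values of both groups went into limma 3.58.1 (R 4.3.3; trended prior, robust, 2-sided) with Benjamini-Hochberg adjustment over all 12279 genes with a mean log2 value of at least 0, at 0.05. The script was tested on simulated data. Folds are powers of 2 of log2(CPM + 0.0353) differences, and the added 0.0353 CPM pulls folds of low genes toward 1. A fold can still lie above the ratio of pooled CPM, as for Cxcl1 (6.88 against 6.83) and Ccl7 (2.21 against 2.16), or below it, as for Ccl5 (5.65 against 5.75). Differences are Zfx F5 minus WT. Gene positions are from GENCODE M21 (mm10), and upstream sequences from RefSeq (GRCm38.p6). Members and lists were chosen with earlier results of these data known. All 10 chemokines are named, from each other list the 4 largest differences among its called genes, or genes of at least 1 CPM where fewer than 2 passed, Zfx, the genomic neighbours, and the 3 genes most like the member with the largest rise. None fell, so no gene was named for a largest fall. A gene that the rule names in the interferon list is not reported here. Genes outside this rule are said to be chosen after their values were seen, except Gapdh, Zmynd15, Art3 and the cell type markers.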

Additional observations from a re-analysis of the deposited data

How the results depend on the processing

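The 5 tested chemokine differences kept their direction and stayed past the threshold in limma under all 14 alternatives run. Those were no filter, a mean log2 of at least 2, 1 or 5 CPM added, TMM scaling, median centring, no trend and robust moderation, leaving out each library, and voom on recovered reads, which was chosen after seeing the data. Adjusted p-values reached at most 6.11e-05 for Cxcl1, 2.87e-06 for Cxcl10, 1.57e-05 for Ccl5, 0.00176 for Ccl7 and 0.00743 for Ccl2. Without single libraries the log2 differences ranged from 2.54 to 2.94 (Cxcl1), 1.32 to 1.38 (Cxcl10), 2.40 to 2.64 (Ccl5), 1.02 to 1.36 (Ccl7) and 0.20 to 0.30 (Ccl2). With no filter, 1 other chemokine was higher (Cxcl9), 1 receptor (Ccr4) and 2 decoy receptors (Ccrl2 beside Ackr3), with Ccr4 and Ccrl2 named after their values were seen, all with at most 12 reads in a library except Ackr3. Other chemokines lower numbered 1 with TMM scaling and without trend and robust moderation, and 0 to 1 without single libraries. Interferon factors lower numbered 2 without trend and robust moderation and 1 to 4 without single libraries. mRNA decay factors higher numbered 1 with TMM scaling and without trend and robust moderation, and those lower 2 to 4 without single libraries. The cause of these changes was not tested. By CPM in place of TPM, Cxcl1 ranked 3 and Ccl5 ranked 4 in Zfx F5. The edgeR and DESeq2 alternatives were not run, and voom is the one fit on recovered reads. The 5 members below the filter have no tested difference under the main setting. No paired analysis was possible because the labels carry no replicate numbers; those used in the text follow sample order and only name libraries. Genes under about 3 reads in a library cannot be told from 0.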
